A study of Drosophila melanogaster with 6 samples.

Results

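Neuropeptides and peptide hormones are cut from larger precursor proteins, and the genes of 38 such precursors were followed here in larval *Drosophila melanogaster* brains after chronic alcohol. The members were chosen by name, as genes encoding neuropeptide or peptide hormone precursors. All 38 were listed among the 17137 gene names of the deposited expression table, with 68 of its 36294 transcripts. RNA was sequenced from dissected brains of third-instar larvae of the wild-type strain Canton-S, which carries no transgene. The 3 control pools came from larvae grown on regular cornmeal food, and the 3 alcohol pools from larvae grown from egg-laying on food with 5% alcohol (ethanol). Each pool held about 30 brains, taken 6 days after egg-laying from larvae that had begun to leave the food. Alcohol solution was pipetted onto the alcohol food every day, whereas control food got no daily addition, so the alcohol and the daily addition cannot be told apart. No source used here says whether the pools came from separate cultures, so the p-values measure the spread between these pools, which may be partly technical. The sex of the larvae is not given in the sources used here.

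A precursor enters the secretory pathway, is cut by convertases at basic residues, and most of its peptides receive a C-terminal amide before release from dense-core vesicles. The peptides then act mainly on G protein-coupled receptors of other neurons, muscle, gut or glands. Many precursors are made in few, strongly expressing neurons, so the level in a whole brain can rest on a handful of cells. In flies, NPF signalling is known for its part in ethanol sensitivity and reward, and a mutant of *amn* was isolated for its sensitivity to ethanol. In bulk RNA of pooled brains, fewer cells of a type and less RNA per cell cannot be told apart.

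The values are FPKM, fragment numbers scaled for transcript length and for the size of a library, summed over the transcripts of a gene. Between 2719 and 4244 megabases were aligned in a pool. Neuron markers (*elav*, *nSyb* and others) were present in every pool, with sums of 441 to 761 FPKM. The sums of glia markers (*repo* and others) were 252 to 370 FPKM. The 4 Hox genes of the ventral nerve cord summed to 15.4 to 29.6 FPKM, and the steroid and juvenile hormone enzymes of the ring gland to 161 to 375 FPKM. Markers of both structures were therefore present in the RNA labelled as brain, and whether they came only from these structures was not tested. RNA of other tissues was present too, and varied widely between pools. Summed midgut markers were 56.2 to 9486 FPKM, highest in alcohol pool 3. Fat body markers were 669 to 6448 FPKM, salivary gland markers 14058 to 55808 FPKM, muscle markers 65.2 to 520 FPKM and cuticle markers 49.1 to 360 FPKM. Hemocyte markers were 39.9 to 68.0 FPKM and tracheal markers 102 to 164 FPKM. By the calling rule below, 6 of 8 salivary gland, 3 of 6 cuticle and 4 of 7 muscle markers were called higher with alcohol. Of all genes 1.22% were called. These calls came from a fit with a library-size term, described below. The median log2 changes of the 3 lists were 1.30, 1.54 and 2.35 with that term and 0.37, 0.56 and 0.97 without it. Their mean sums were 36281, 160 and 220 FPKM in control and 36768, 229 and 290 FPKM in alcohol pools. Among these markers only *ng1*, *ng2* and *ng3* were higher in every alcohol pool. They averaged 3.13, 3.54 and 57.4 FPKM in control and 66.6, 45.9 and 438 FPKM in alcohol pools. *Fbp1* of the fat body was lower in every alcohol pool, with means of 875 and 203 FPKM. The part of other tissues, or of a difference in larval stage, in the results below was not tested.

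Among the 38 precursors, 17 had a mean level over 20 FPKM across the pools, 13 lay between 5 and 20 FPKM and 8 were under 5 FPKM. FPKM is scaled for transcript length, so these levels can be set beside each other. The highest means belonged, in falling order, to *Proc* (53.4 FPKM), *SIFa* (46.3), *Capa* (45.2), *Ms* (44.8), *Nplp2* (40.9), *Nplp1* (39.1), *NPF* (37.8) and *Akh* (36.4). Neighbours in this order differed by less than the spread of either gene over the pools. Of the 8 low members, 4 were under 1 FPKM, namely *CNMa*, *RYa*, *amn* and *Nplp3*. *amn* did not exceed 0.058 FPKM in any pool, and *Nplp3* was at 0.092 FPKM in control pool 1 and listed at 0 in the other pools. Genes with a variance of 1 or less over the 6 pools were not tested, which left 32 members. The members below that limit were the 4 just named, *Tk* (variance 0.853) and *CCHa1* (0.263). The nearest members above it were *Pburs* (1.07) and *ETH* (1.18).

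**Figure D1:**
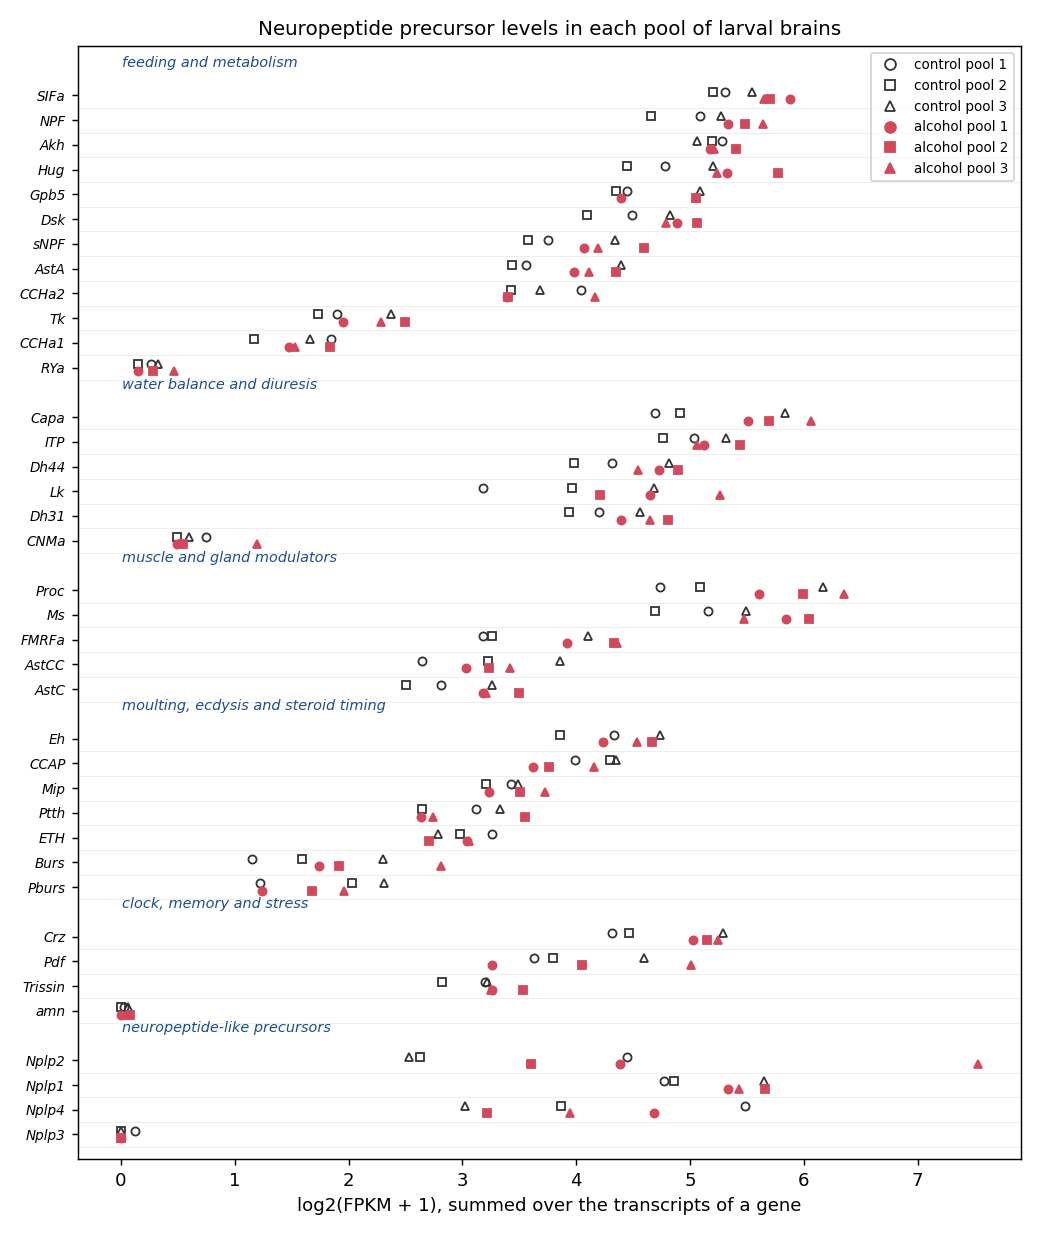
Level of each of the 38 precursor genes in each pool, as log2(FPKM + 1) of the FPKM summed over a gene's transcripts (horizontal axis), with genes grouped by role on the vertical axis. Open symbols are the control pools and filled symbols the alcohol pools, with circles, squares and triangles for pools 1, 2 and 3. The filled symbols lie to the right of all open ones for SIFa, NPF, Hug and Trissin only among the 32 genes tested.

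No precursor gene passed the threshold for differential expression between control and alcohol pools. The test was limma's moderated test on log2(FPKM + 1), with treatment and a library-size term, and a gene was called at an unadjusted p under 0.05 with a change of more than 2-fold. By this rule 101 of 8247 genes were called, or 1.22%, of which 97 were higher with alcohol and 4 lower, and 0 members were. Without the library-size term the split of all genes called was 45 higher and 35 lower, and after rescaling each pool to a fixed total it was 73 and 201, so the predominance of higher genes hung on the scaling. After that rescaling 2 members, *Hug* (1.04 on the log2 scale) and *Ms* (1.12), were called. *Pburs* was called with a pseudocount of 0.1, and *Nplp4* with a mean-variance trend and without alcohol pool 2. An unadjusted p under 0.05, whatever the size of change, was reached by 3 members (*CCAP*, *AstCC* and *Pburs*, each with a negative fitted change) and by 2.44% of all genes. At a Benjamini-Hochberg adjusted p under 0.05, 0 of all genes passed, against 201 at an unadjusted p under 0.05. The smallest adjusted p of any member in limma's test was 0.640. The standard errors of the members' log2 changes ran from 0.15 to 1.56 with a median of 0.29, so for a typical member the standard error was well under the 2-fold threshold.

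Below that threshold most members stood higher in alcohol pools. The ratio of the mean alcohol level to the mean control level was above 1 for 25 of the 32 members tested, with a median ratio of 1.26. In 4 members (*SIFa*, *NPF*, *Hug* and *Trissin*) every alcohol pool was above every control pool, which was so for 1.77% of all genes. In 0 members was every alcohol pool below every control pool, against 4.44% of all genes. The fitted log2 change was positive for 23 of 32 members and for 49.9% of all genes, with a median of 0.081 for the members and -0.00046 for all genes. The library-size term was a sum of log2(FPKM + 1) over the nonzero transcripts of a pool below its 75th percentile, after the variance filter. It was 30450, 29432 and 29005 in control pools 1 to 3 and 29222, 28800 and 28531 in alcohol pools 1 to 3. Treatment explained 40.3% of its variance. Without this term 25 of 32 members were positive, against 40.6% of all genes, and the medians were 0.37 and -0.04. An unadjusted limma p under 0.05 was then reached by *SIFa* (0.0278), *Ms* (0.0403), *Hug* (0.0431) and *NPF* (0.0463), but by neither *CCAP*, *AstCC* nor *Pburs*, and 0 members were called.

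This lean also depended on single control pools. Control pool 3 held the highest control value of 27 of the 32 members (84.4%), which was so for 41.6% of all genes. The sums of neuron markers and of Hox genes were likewise highest among the controls in pool 3, at 727 and 29.6 FPKM. Without control pool 2, the lowest control for 17 members, only 11 members were positive and the median became -0.10. Without control pool 1, the lowest control for 11 members, 17 were positive and the median was 0.03. Without control pool 3, 27 were positive and the median was 0.53. These 3 fits kept the library-size term. The medians of all genes in them were -0.04 without control pool 2, -0.01 without control pool 1 and 0.11 without control pool 3. The part of neuron content in these differences was not tested.

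**Figure D2:**
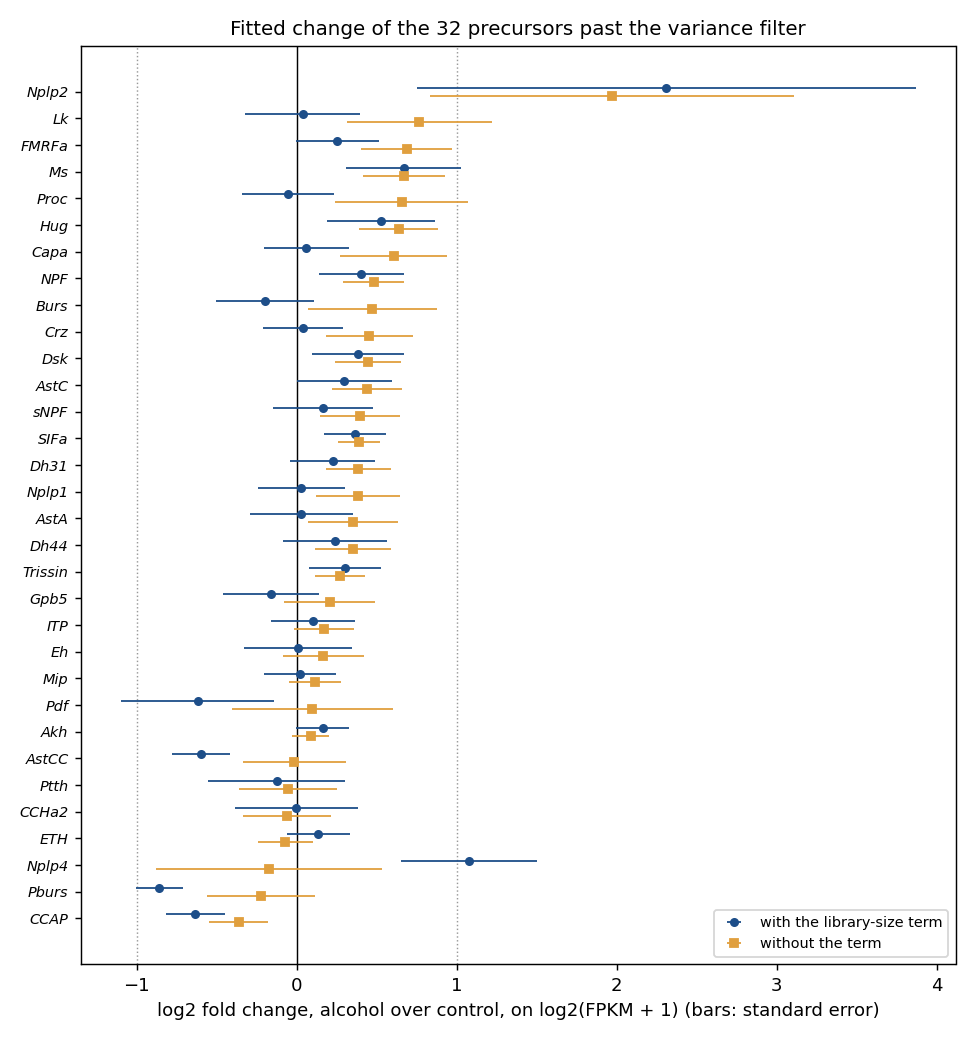
Fitted log2 change between alcohol and control pools for the 32 precursor genes tested, on the log2(FPKM + 1) scale (horizontal axis), with genes ordered by the change without the library-size term. Circles are the fit with the term and squares the fit without it, bars are standard errors, and dotted lines mark a 2-fold change. With the term 23 circles lie above 0, and without it 25 squares do. The circle lies below 0 and the square above it for Proc, Pdf, Burs and Gpb5, and the reverse holds for Nplp4 and ETH.

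Of the peptides of feeding and metabolism, 9 of 12 were tested, and 7 of these were positive, against 49.9% of all genes. In 3 of them every alcohol pool was above every control pool, against 1.77% of all genes, and none was called. *SIFa* encodes the SIFamide made by a small cluster of cells in the pars intercerebralis, known for its effects on feeding and courtship. Its level was 38.7, 35.8 and 45.6 FPKM in control pools 1 to 3 and 57.7, 51.1 and 49.2 FPKM in alcohol pools 1 to 3. The groups did not overlap, and alcohol pool 1 was the highest of all. The log2 change was 0.36 ± 0.19 (SE, n = 3 pools in each group; limma adjusted p = 0.997). *SIFa* lies at chr2R:24577566-24578143 in dm6 and shares up to 111 of its 526 bases with *Start1* on the opposite strand. *NPF*, neuropeptide F, the fly relative of neuropeptide Y, lies at chr3R:16609220-16611325. It was at 33.0, 24.2 and 37.6 FPKM in control pools and at 39.4, 43.7 and 49.0 FPKM in alcohol pools. The highest control and the lowest alcohol pool were close, and the log2 change was 0.40 ± 0.27 (SE; limma adjusted p = 0.997). Of its isoforms *NPF-RC* carried 70.7% to 81.9% of the gene's FPKM in every pool, and *NPF-RB* was listed at 0 throughout. *Hug*, hugin, is made in the subesophageal zone and links taste and feeding to locomotion in larvae (chr3R:12526188-12529076). Its levels were 26.5, 20.8 and 35.8 FPKM in control pools and 39.0, 53.8 and 36.7 FPKM in alcohol pools. Alcohol pool 2 was the high value and control pool 2 the low one, with a log2 change of 0.53 ± 0.34 (SE; limma adjusted p = 0.997).

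The other members of this group overlapped between control and alcohol pools. *Akh*, the adipokinetic hormone of the ring gland that mobilises fat body stores, was among the steadiest precursors, at 32.3 to 37.9 FPKM in control and 35.2 to 41.3 FPKM in alcohol pools. *Dsk*, the cholecystokinin-like drosulfakinin linked to satiety, was at 16.1 to 27.3 FPKM in control and 26.7 to 32.4 FPKM in alcohol pools. *sNPF*, short neuropeptide F, which promotes feeding, was at 10.9 to 19.3 and 15.8 to 23.1 FPKM. In both, control pool 3 was the only control pool that reached into the alcohol range. *AstA*, allatostatin A, an inhibitor of feeding, was at 9.80 to 20.1 FPKM in control and 14.8 to 19.4 FPKM in alcohol pools. *Gpb5*, a subunit of the glycoprotein hormone that acts on *Lgr1*, was at 19.4 to 33.0 and 20.0 to 32.3 FPKM. *CCHa2*, a nutrient-dependent peptide that acts on insulin-producing cells, was at 9.73 to 15.5 and 9.52 to 16.9 FPKM. In *AstA*, control pools 1 and 2 were below every alcohol pool and control pool 3 was above them, whereas *Gpb5* and *CCHa2* had low and high pools in both groups. *Tk* (tachykinin) and *CCHa1* stayed between 1.25 and 4.64 FPKM and *RYa* (RYamide) at or below 0.378 FPKM, and none of these was tested.

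The water balance group, as members were grouped here, held 6 members, of which 5 were tested. All 5 had a positive fitted change, against 49.9% of all genes, and overlapping control and alcohol pools. For *Lk* and *Capa* this change was only 0.04 and 0.06. *Gpb5*, placed with feeding above, had a change of -0.16. *Capa*, the source of capability peptides that act on Malpighian tubules, is made in neurosecretory cells of the ventral nerve cord (chr3R:29912991-29914346). It was at 24.9, 29.2 and 56.0 FPKM in control pools and at 44.4, 50.6 and 65.9 FPKM in alcohol pools. Control pool 3 lay within the alcohol range. The log2 change was 0.06 ± 0.27 (SE; limma adjusted p = 0.997) with the library-size term, 0.61 without it, and -0.20 without control pool 2. *Lk*, leucokinin, which stimulates fluid secretion, ran from 8.10 to 24.7 FPKM in control and from 17.5 to 37.5 FPKM in alcohol pools. A noncoding gene on the opposite strand, *asRNA:CR44843*, covers 582 bases of *Lk*, and its level was 2.67 to 5.01 FPKM. The diuretic hormones *Dh31* and *Dh44* were at 14.3 to 22.6 and 14.7 to 27.2 FPKM in control pools and at 20.0 to 27.1 and 22.3 to 28.7 FPKM in alcohol pools. *ITP*, the antidiuretic ion transport peptide, was at 26.1 to 38.9 and 32.4 to 42.4 FPKM. Of its 5 isoforms *ITP-RE* and *ITP-RD* were the main ones in every pool. *CNMa* was at 0.403 to 1.29 FPKM.

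Among the modulators of muscle and glands, *Ms* and *Proc* were the most abundant. *Ms* encodes dromyosuppressin, which inhibits gut and heart muscle (chr3R:24341551-24343825). Its levels were 34.8, 24.9 and 44.0 FPKM in control pools and 56.4, 65.0 and 43.4 FPKM in alcohol pools. Alcohol pool 3 fell just short of control pool 3, so the groups overlapped, and the log2 change was 0.67 ± 0.36 (SE; limma adjusted p = 0.997). Without control pool 3 it was 1.35, and *Ms* was then called. *Proc*, proctolin, a stimulant of muscle contraction, spanned a wide range in both groups (chr2L:7864642-7871432). It was at 25.7, 32.9 and 70.8 FPKM in control pools and at 47.6, 62.7 and 80.9 FPKM in alcohol pools. The log2 change was -0.05 ± 0.29 (SE; limma adjusted p = 0.997) with the library-size term and 0.66 without it, so its direction hung on that term. *FMRFa*, made in thoracic neurosecretory cells, was at 8.07 to 16.1 FPKM in control and 14.1 to 19.5 FPKM in alcohol pools. *AstC* and *AstCC* are neighbouring allatostatin genes on chromosome arm 2L. *AstC* was at 4.67 to 8.56 FPKM in control and 8.05 to 10.3 FPKM in alcohol pools. *AstCC* was at 5.24, 8.33 and 13.5 FPKM in control and 7.17, 8.41 and 9.69 FPKM in alcohol pools. Its groups overlapped fully, and the log2 change of -0.60 ± 0.18 (SE; limma unadjusted p = 0.0206, adjusted p = 0.997) was -0.01 without the library-size term.

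Of the 7 peptides of moulting, ecdysis and steroid timing, all were tested and 3 were positive, against 49.9% of all genes, with a median log2 change of -0.13, or -0.05 without the library-size term. Ecdysis is the shedding of the old cuticle, and these peptides act in a cascade in which *ETH* from the tracheal Inka cells and *Eh* from brain neurons start the sequence and *CCAP* and bursicon complete it. *CCAP*, crustacean cardioactive peptide, was chosen for description after its values were seen (chr3R:22700582-22702084). It was at 14.8, 18.6 and 19.4 FPKM in control pools and at 11.3, 12.6 and 16.9 FPKM in alcohol pools. Only alcohol pool 3 reached into the control range. The log2 change was -0.63 ± 0.18 (SE; limma unadjusted p = 0.0185, adjusted p = 0.997), and -0.36 without the library-size term.

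Bursicon, which hardens the new cuticle, is a dimer of the products of *Burs* and *Pburs*, and both genes were low. *Pburs* was at 1.33, 3.09 and 3.96 FPKM in control pools and at 1.37, 2.21 and 2.90 FPKM in alcohol pools. Its groups overlapped, and the log2 change of -0.86 ± 0.15 (SE; limma unadjusted p = 0.00222, adjusted p = 0.640) was -0.22 without the library-size term. *Burs* was at 1.22, 2.02 and 3.94 FPKM in control and 2.34, 2.78 and 6.01 FPKM in alcohol pools. The ratio of *Burs* to *Pburs*, also looked at after the values were seen, was 0.920, 0.654 and 0.996 in control pools and 1.71, 1.26 and 2.07 in alcohol pools. The ratios did not overlap, and they differed by 0.97 on the log2 scale (exact two-sided permutation test, p = 0.1, the smallest that 3 pools against 3 allow). Any ratio without overlap gives this p, so the test adds nothing to the separation already seen. *CCAP* and bursicon are made in ventral nerve cord neurons. The 4 Hox genes of the cord summed to 22.1 ± 7.13 FPKM (SD, n = 3) in control and 22.3 ± 4.18 FPKM in alcohol pools. These plain sums show no difference beyond the spread. Their mean alcohol to control ratios were 1.07 for *Antp*, 1.05 for *Ubx*, 0.868 for *abd-A* and 0.996 for *Abd-B*. With the library-size term, *abd-A* had a log2 change of -0.91 ± 0.15 (SE; limma unadjusted p = 0.00180, adjusted p = 0.640). For *Antp* it was -0.15 ± 0.17 (SE), and the other 2 Hox genes were not tested. The median of the 2 tested was -0.53 with the term and 0.01 without it. The part of nerve cord content in the *CCAP* and bursicon values was not tested.

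The remaining ecdysis and steroid-timing members overlapped. *Eh*, eclosion hormone, was at 13.5 to 25.6 FPKM in control and 17.8 to 24.4 FPKM in alcohol pools. *ETH*, ecdysis triggering hormone, was at 5.90 to 8.58 and 5.55 to 7.33 FPKM. An antisense gene, *asRNA:CR43257*, covers 683 bases of *ETH* and was at 0.931 to 2.21 FPKM, and whether the counting used strand is not given in the sources used here. *Ptth*, the prothoracicotropic hormone that drives ecdysone release at the onset of metamorphosis, was at 5.25 to 9.09 and 5.22 to 10.7 FPKM. *Mip*, myoinhibitory peptide, was at 8.25 to 10.2 and 8.40 to 12.2 FPKM. In each of these genes the group means differed by less than 1 SD of the control pools.

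In the clock, memory and stress group, *Trissin*, a cysteine-rich peptide with its own receptor, was separated between the groups (chr3R:15484730-15485396). It was at 8.19, 6.08 and 8.28 FPKM in control pools and at 8.59, 10.5 and 8.53 FPKM in alcohol pools. The gap between the groups was small beside the spread within each, and the log2 change was 0.30 ± 0.23 (SE; limma adjusted p = 0.997). *Pdf*, pigment-dispersing factor, the transmitter of the lateral clock neurons, was at 11.4 to 23.2 FPKM in control and 8.57 to 31.2 FPKM in alcohol pools. Both extremes of *Pdf* were thus alcohol pools. *Crz*, corazonin, a peptide of stress and metabolism, was at 18.9, 21.1 and 38.0 FPKM in control and 31.5, 34.5 and 37.1 FPKM in alcohol pools. Control pool 3 was the highest of all 6 pools for *Crz*, and the other control pools were the lowest.

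Among the neuropeptide-like precursors, *Nplp2* and *Nplp4* varied widely between pools of one group. *Nplp1*, which yields a peptide that activates a receptor guanylate cyclase, was steadier (chr2R:25032377-25040377). It was at 26.3, 28.0 and 49.2 FPKM in control pools and at 39.3, 49.6 and 42.1 FPKM in alcohol pools, with a log2 change of 0.03 ± 0.27 (SE; limma adjusted p = 0.997). *Nplp2* was at 20.8, 5.18 and 4.78 FPKM in control pools and at 19.9, 11.1 and 183.5 FPKM in alcohol pools (chr3L:13356376-13357223). Alcohol pool 3 stood far above the rest, and this pool also had the highest sum of midgut markers, 9486 FPKM. Control pool 2 had the next highest midgut sum, 4450 FPKM, but *Nplp2* there was among the lowest values. The log2 change of *Nplp2* was 2.31 ± 1.56 (SE; limma adjusted p = 0.997). Without alcohol pool 3 it was 1.68, and *Nplp2* was then called. *Nplp4* was at 43.6, 13.6 and 7.13 FPKM in control and 24.7, 8.28 and 14.4 FPKM in alcohol pools (chr2L:2008414-2009072). Its highest values were in control pool 1 and alcohol pool 1, the pools that also had the highest sums of muscle and of cuticle markers, except that alcohol pool 3 came close in muscle. The log2 change of *Nplp4* was 1.08 ± 0.43 (SE; limma adjusted p = 0.997) with the library-size term and -0.17 without it. The part of these other tissues in the *Nplp2* and *Nplp4* values was not tested.

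At the level of transcripts, 48 of the 68 member transcripts were tested and 1 was called, *Nplp4-RB*, against 3.85% of all 14645 transcripts tested. *Nplp4-RB* was at 13.4, 2.87 and 2.34 FPKM in control pools and at 9.68, 7.10 and 4.55 FPKM in alcohol pools. Its groups overlapped, with control pool 1 the highest of all. The log2 change was 1.62 ± 0.28 (SE; limma unadjusted p = 0.00242, adjusted p = 0.522), and 0.46 without the library-size term, where it was no longer called. It has 148 bases that the other isoform, *Nplp4-RA*, lacks, and both encode the same protein. *Nplp4-RA* was at 30.3, 10.7 and 4.79 FPKM in control and 15.1, 1.19 and 9.89 FPKM in alcohol pools. Transcript usage, the share of a gene's expression that each isoform takes, was compared by an F-test for each gene (diffSplice in limma). It could be tested in 14 members, and 0 passed at an adjusted p under 0.05, against 1.05% of all genes with several transcripts tested. In 1 member, *CCHa2*, the unadjusted p was under 0.05, as it was in 11.5% of all genes so tested, so this share is not a result about the members. Of the member transcripts tested, 5 were higher and 2 lower in every alcohol pool than in every control pool, against 2.82% and 4.9% of all transcripts. The higher ones were *SIFa-RB*, *Hug-RA*, *Trissin-RB*, *Dh31-RA* and *CCHa2-RA*, and the lower ones *CCHa2-RB* and *CCAP-RB*. *SIFa-RB*, *Hug-RA* and *Trissin-RB* are the only listed transcripts of their genes, so they repeat the separation of those genes.

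In *CCHa2*, described here as the member with the smallest usage p, the isoform shares did not overlap between the groups while the summed levels did, and the usage test did not pass the adjusted threshold. *CCHa2-RB*, which starts at the more internal 5′ end (chr3R:13389059-13393081, minus strand), was at 9.46, 4.90 and 4.42 FPKM in control pools and at 1.05, 1.02 and 2.89 FPKM in alcohol pools. *CCHa2-RA*, with a further upstream first exon (chr3R:13389059-13395197), was at 5.81, 4.83 and 7.41 FPKM in control pools and at 8.47, 8.56 and 13.1 FPKM in alcohol pools. Neither isoform overlapped between the groups, with *CCHa2-RB* lower and *CCHa2-RA* higher in alcohol pools. The summed fat body markers were 6448, 4689 and 2123 FPKM in control and 1440, 669 and 3947 FPKM in alcohol pools. Within each group *CCHa2-RB* ranked the pools in the same order as these sums, and *CCHa2-RA* did not. The part of other tissues in these isoform values was not tested. *CCHa2-RB* made up 61.2%, 50.4% and 37.4% of the gene in control pools and 11.1%, 10.6% and 17.1% in alcohol pools. The usage test gave an unadjusted p of 0.0322 and an adjusted p of 0.378 in limma's diffSplice. On its own *CCHa2-RB* had a log2 change of -1.19 ± 0.52 (SE; limma unadjusted p = 0.0729). It was called without the library-size term, at -1.46 (unadjusted p = 0.0108), and also after rescaling, without control pool 1 and without alcohol pool 3, at -2.04, -1.46 and -1.38, and with both that term and the replicate numbers in the model it was 0.23. All 3 isoforms share a coding sequence of 408 bases, so they differ outside it. *CCHa2-RA* has 137 bases of its own, while *CCHa2-RB* has 0, since its first exon is shared with *CCHa2-RC*, an isoform listed at 0 in 4 of the 6 pools.

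*CCAP* and *Proc* showed isoform splits that divided pools of one group. *CCAP-RB* carried 97.2% and 98.5% of the gene in control pools 1 and 2 but 27.0% in control pool 3, and 29.6%, 33.5% and 28.8% in alcohol pools. In these shares control pool 3 thus sided with the alcohol pools. The level of *CCAP-RB* was 14.4, 18.3 and 5.25 FPKM in control pools and 3.35, 4.21 and 4.86 FPKM in alcohol pools, without overlap. Its log2 change was -0.92 (limma unadjusted p = 0.184) with the library-size term. Without the term it was -1.27 (limma unadjusted p = 0.0338), and *CCAP-RB* was then called. *CCAP-RA* is 535 bases longer at the 5′ end, encodes the same protein, and shares 78 bases with *CG6972* on the opposite strand. Its level was 0.420, 0.287 and 14.2 FPKM in control pools and 7.96, 8.36 and 12.0 FPKM in alcohol pools. Usage of *CCAP* had an adjusted p of 0.805 with all pools, and of 0.0432 without control pool 3. *Proc-RA*, which differs from *Proc-RB* by 91 bases at the 5′ end, carried 99.5% of the gene in control pool 1 and 1.0% to 5.2% in the other 5 pools. The summed level of *Proc* in control pool 1, 25.7 FPKM, was the lowest of the 6. *AstA-RB*, which lacks 405 bases of *AstA-RA*, made up 22.4%, 15.4% and 20.5% of the gene in control pools and 3.9%, 9.7% and 11.8% in alcohol pools. These shares of *AstA* did not overlap, and the usage test gave an adjusted p of 0.544 (unadjusted p = 0.0985).

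**Figure D3:**
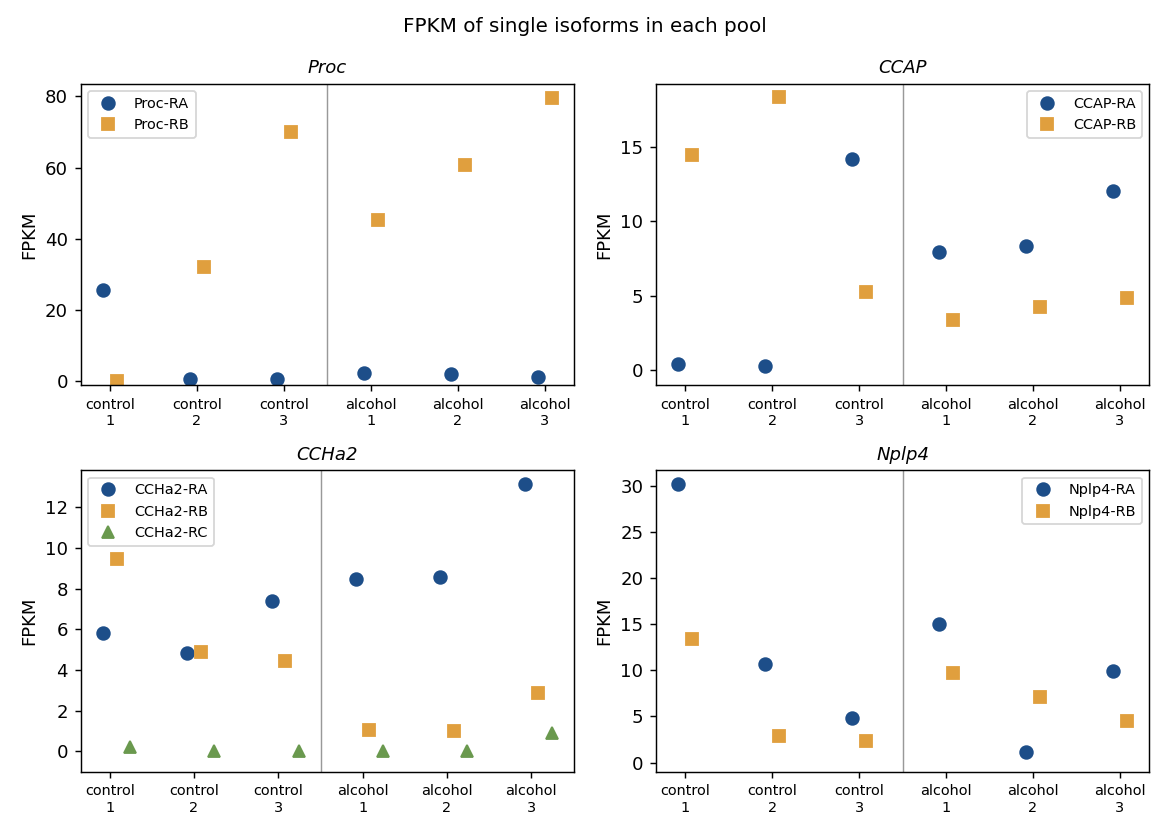
FPKM of single isoforms (vertical axis) of Proc, CCAP, CCHa2 and Nplp4 in each of the 6 pools (horizontal axis), with a line between control and alcohol pools and a symbol for each isoform. CCHa2-RB lies at 4.42 FPKM or more in control pools and at 2.89 FPKM or less in alcohol pools, whereas the CCAP split sets control pools 1 and 2, and the Proc split control pool 1, apart from all other pools.

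Of 14 genes listed here for the production, processing or release of peptides, 13 were tested. The fitted log2 changes ran from -0.47 (*Mical*, an actin-oxidising enzyme) to 0.12 (*Pal2*, an enzyme of peptide amidation), with a median of -0.05. None of the 13 was called, but with 1.22% of all genes called, a list of this size would not be set apart by a count of 0. The highest were *crc*, a transcription factor linked to neuropeptide production, at 491 to 587 FPKM in control and 508 to 514 FPKM in alcohol pools, *IA-2*, a dense-core vesicle protein, at 79.3 to 147 and 112 to 146 FPKM, and *7B2*, the chaperone of the convertase *amon*, at 78.1 to 125 and 105 to 122 FPKM. Their ranges overlapped. The summed processing list, of which *crc* was the largest part, was 1134 to 1371 FPKM in control and 1164 to 1374 FPKM in alcohol pools. *dimm*, the factor that specifies many peptidergic cells, was too low to test, at 0.615 to 1.11 FPKM.

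The receptors of these peptides were expressed at low levels, and only 9 of 37 passed the variance filter. Of these 0 were called, which at 1.22% of all genes says nothing about so short a list, and the median log2 change was -0.15, or 0.06 without the library-size term. The highest receptor was *AstC-R2*, a receptor of *AstC*, at 7.75 to 15.1 FPKM in control and 7.46 to 14.2 FPKM in alcohol pools. *Dh44-R2* and *SPR*, a receptor of *Mip* peptides, followed, at 4.66 to 8.36 and 4.62 to 8.80 FPKM over all pools. *ETHR*, the receptor of ETH, was picked out after its values were seen, at 4.07, 3.28 and 3.94 FPKM in control and 10.4, 8.12 and 3.98 FPKM in alcohol pools. Alcohol pools 1 and 2 were high, and alcohol pool 3 was within the control range, with a log2 change of 1.03 ± 0.40 (SE; limma unadjusted p = 0.0504, adjusted p = 0.997). *ETHR* was called without alcohol pool 3, at 1.17, after rescaling, at 1.39, and with a filter on the mean, at 1.07. Among the receptors too low to test, *Proc-R* was at 1.18, 0.800 and 1.13 FPKM in control and 1.72, 1.91 and 1.91 FPKM in alcohol pools. *CapaR* was at 0.326, 0.459 and 0.500 FPKM in control and 0.514, 0.514 and 0.734 FPKM in alcohol pools. In these 2 of the 28 untested receptors every alcohol pool was above every control pool, as in 2.83% of all genes below the variance filter, and no test was made.

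Summed over the 38 members, the precursors came to 596, 509 and 801 FPKM in control pools and to 733, 845 and 1022 FPKM in alcohol pools. Without *Nplp2* and *Nplp4* the sums were 531, 490 and 789 FPKM in control and 688, 825 and 824 FPKM in alcohol pools. Control pools 1 and 2 were low, and control pool 3 was within the alcohol range. Per 100 FPKM of summed neuron markers, the precursors without *Nplp2* and *Nplp4* came to 121, 100 and 109 FPKM in control pools and to 127, 108 and 186 FPKM in alcohol pools. On that scale the groups overlapped, and alcohol pool 3, which had a low neuron sum of 443 FPKM, was the high value.

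**Figure D4:**
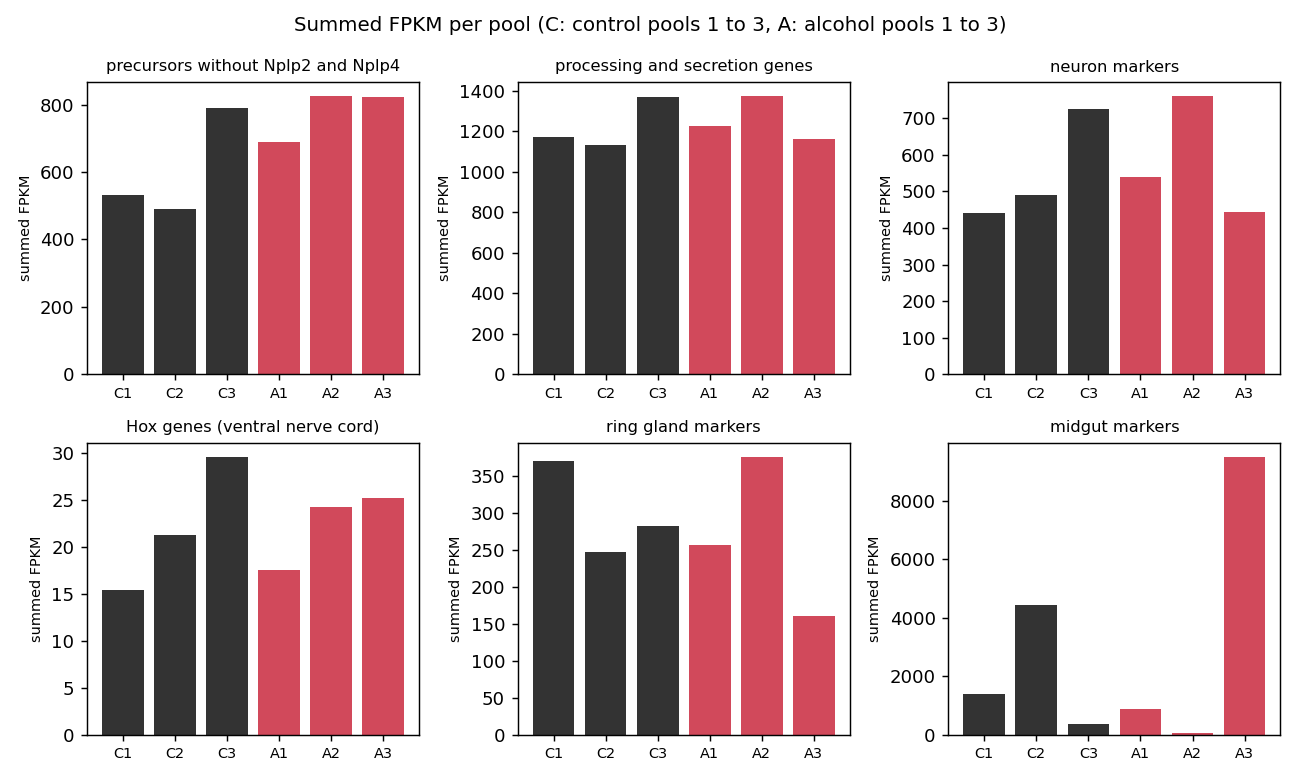
Summed FPKM (vertical axes, each starting at 0) of the precursors without Nplp2 and Nplp4, of the processing genes and of 4 marker lists in control pools 1 to 3 (dark bars) and alcohol pools 1 to 3 (red bars), with 1 value per pool and no error bars. The precursors are lowest in control pools 1 and 2, at 531 and 490 FPKM, and the midgut markers are highest in alcohol pool 3, at 9486 FPKM.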

How the data were processed

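Poly-A RNA of 6 pools of dissected brains was sequenced. The authors trimmed reads (Trimmomatic 0.39, FastQC 0.11.9, per the labels' processing notes), aligned them to dm6 (HISAT2 2.2.0, SAMtools) and quantified transcripts (StringTie 2.1.4). They deposited an FPKM value and a read coverage for each transcript and pool, with no counts, so no counting error is given. A further deposited table holds the authors' fold changes, p-values and q-values and was not used. Coverage divided by FPKM gave the aligned bases of a pool.

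FPKM was summed over the transcripts of a gene name. Genes or transcripts with a variance over 1 across the 6 pools were fitted on log2(FPKM + 1), which understates changes of low genes, with limma 3.58.1 in R 4.3.3. The model held treatment and the library-size term that Ballgown adds (the sum over nonzero transcripts below the 75th percentile). P-values were adjusted by Benjamini-Hochberg over all features, and usage was tested with diffSplice. Tables and plots used Python 3.11.15, numpy 2.4.6, pandas 2.3.3 and matplotlib 3.10.9. The model was tested on simulated data. Isoform names came from matching positions to the Ensembl annotation of the same assembly, which 34411 transcripts did; 2 *Nplp2* entries with the same span were not matched.

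The members, the gene lists and the tests were chosen with earlier results of these data known. Pool values and fold changes are given for members called, for those tested whose groups did not overlap and for the 6 highest. *CCAP*, *AstCC* and *Pburs*, with an unadjusted p under 0.05, were added after their values were seen, as were isoforms other than those of *Nplp4*, the receptor *ETHR* and the *Burs* to *Pburs* ratio. The marker lists covered neurons, glia, nerve cord, ring gland, midgut, fat body, salivary gland, cuticle, hemocytes, muscle and trachea. Groups came from the labels. Alternatives were other covariates and blocks, a pseudocount of 0.1, other filters, rescaling, quantile normalization, a variance trend in limma and dropping each pool in turn.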

Additional observations from a re-analysis of the deposited data

How the results depend on the processing

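The log2 changes given with an error, other than those of *abd-A* and *Antp*, had 254 alternative values (13 precursor genes, *Nplp4-RB*, *CCHa2-RB* and *ETHR*). Of these values 210 kept their direction and their side of the threshold, 5 fell below it, 17 passed it and 22 reversed. Genes called (101, of which 97 higher and 4 lower) became 384 with the replicate block and the library-size term, a fit with 1 residual degree of freedom, and 274 (73 higher, 201 lower) after rescaling pools to a fixed total, with 85 to 165 on leaving out a pool. They split into 45 higher and 35 lower without the term and into 62 and 42 with quantile normalization. Transcripts called (564) became 348 without the term, 323 with the block and no term and 352 with quantile normalization, and 534 to 851 on leaving out a pool. Member genes called (0) became 1 with block and term (*Nplp2*), 1 with a pseudocount of 0.1 (*Pburs*), 2 after rescaling (*Hug*, *Ms*) and 1 with a mean-variance trend (*Nplp4*). Leaving out a pool gave 0 to 1: *Ms* without control pool 3, *Nplp4* without alcohol pool 2 and *Nplp2* without alcohol pool 3. Member transcripts called (1) became 2 without the term, 3 with block and term, 2 with a pseudocount of 0.1, 3 after rescaling, 2 with quantile normalization and 2 to 4 on leaving out a pool. Usage calls over all genes (38) became 21 without the term, 1 with block and term, 5 with the block alone and 9 to 76 on leaving out a pool.

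*Nplp4* reversed to -0.17 without the term, with or without the block, to -0.24 after rescaling and to -0.18 with quantile normalization. *Proc* became 0.66 without the term, with or without the block, 0.16 with block and term, 0.17 without the variance filter, 0.59 after rescaling, 0.66 with quantile normalization and 0.32 with the term computed on genes, an alternative added after seeing the data, and ran from -0.35 to 0.45 on leaving out a pool. *Nplp1* became -0.12 with block and term and ran from -0.20 to 0.53 on leaving out a pool, and *Capa* from -0.20 to 0.52. With quantile normalization *AstCC* became 0.19 and *Pburs* 0.084. *Nplp4-RB* was no longer called at 0.46 without the term, with or without the block, at 1.86 with block and term, at 1.08 after rescaling and at 0.48 with quantile normalization. With block and term *CCHa2-RB* became 0.23 and *ETHR* -0.13. The causes were not tested. No source used here says whether same-numbered pools were handled together, so the numbers were taken as names only. Deviations of same-numbered pools had correlations of -0.0096, -0.18 and -0.24 across transcripts. Between pools of other numbers they ran from -0.084 to 0.28. These values cannot show whether same-numbered pools shared a culture or a sequencing run. Without counts no limit set by depth can be given, and 6 members were too low or too even to test.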
